A study of Homo sapiens with 6 samples.

Results

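The genes described are the AP-1 and EGR immediate early factors, chosen by symbol: FOS, FOSB, FOSL1 and FOSL2, JUN, JUNB and JUND, and EGR1, EGR2 and EGR3. All 10 symbols were among the 23345 rows of the deposited table, and all 10 were among the 15079 genes that passed the filter on low counts. The RNA came from A375 cells, a long-established line from a human melanoma that carries an activating mutation in BRAF, grown in DMEM with 10% fetal bovine serum. Cells were infected with a lentivirus for GFP (3 libraries, the control) or for murine BMI1, a subunit of Polycomb repressive complex 1 (3 libraries), so both groups carried a lentivirus and were cultured in serum. The promoter that drives the transgene, the time from infection to harvest, any selection, and whether the cells were a pool or a clone are not stated in the labels.

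Immediate early genes are transcribed within minutes of a growth factor, serum or stress signal, without new protein synthesis, and most of their mRNAs are short-lived. AP-1 is a dimer of basic leucine zipper proteins in which a JUN protein pairs with itself or with a FOS or ATF protein, and FOSL1 and JUNB are among the members that persist under sustained ERK signalling, as in BRAF-mutant melanoma. The EGR proteins are zinc finger factors that bind GC-rich sites and are restrained by the NAB corepressors. Upstream, ERK phosphorylates ternary complex factors that sit with serum response factor (SRF) on CArG boxes, and CREB and ATF proteins bind cyclic AMP response elements.

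The promoters show which of these elements the members carry close to their start. RefSeq windows on GRCh38.p14, a later build than the hg19 of the deposited counts, were found for 8 of the 10 members, in 10 windows from 250 bases before to 50 bases after an annotated start. FOSL1 and EGR3 were not analysed here. The 3 sequences below are the 250 bases before the start of EGR1, which fell, of EGR2, which has 3 windows of which the third in order holds the matches, and of FOS. They are written 5′ to 3′ on the gene's own strand, with the matched motifs in capitals. The EGR1 stretch is chr5:138465229-138465478 on the plus strand, the EGR2 stretch chr10:62816367-62816616 on the minus strand, and the FOS stretch chr14:75278578-75278827 on the plus strand.
EGR1: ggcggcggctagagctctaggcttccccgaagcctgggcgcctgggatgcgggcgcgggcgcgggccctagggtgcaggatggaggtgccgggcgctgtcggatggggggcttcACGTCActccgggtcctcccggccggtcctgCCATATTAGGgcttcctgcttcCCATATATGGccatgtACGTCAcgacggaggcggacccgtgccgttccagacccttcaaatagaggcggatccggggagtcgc
EGR2: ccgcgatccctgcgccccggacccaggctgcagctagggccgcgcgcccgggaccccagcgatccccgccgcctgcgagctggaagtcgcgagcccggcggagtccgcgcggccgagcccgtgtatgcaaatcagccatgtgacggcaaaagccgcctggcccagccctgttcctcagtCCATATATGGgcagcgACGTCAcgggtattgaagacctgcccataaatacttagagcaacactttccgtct
FOS: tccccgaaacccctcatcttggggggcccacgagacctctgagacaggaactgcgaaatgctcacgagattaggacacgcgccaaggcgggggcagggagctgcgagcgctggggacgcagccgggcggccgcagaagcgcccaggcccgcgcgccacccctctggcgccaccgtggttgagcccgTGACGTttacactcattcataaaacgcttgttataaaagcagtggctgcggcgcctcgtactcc

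In the EGR1 stretch the capitals mark a pair of CArG boxes, from -105 to -96 and from -83 to -74 relative to the start, and 2 copies of ACGTCA, the reverse complement of TGACGT, from -136 to -131 and from -67 to -62. EGR2 held 1 CArG box, from -71 to -62, followed by ACGTCA from -55 to -50. FOS held TGACGT from -64 to -59. Both strands were searched in the whole 300-base windows for the CArG box (CC, then 6 bases that are A or T, then GG), for TGACGT, which is the core of the longer cyclic AMP response element TGACGTCA and overlaps it, for the AP-1 site TGACTCA, and for the EGR sites GCGTGGGCG and GCGGGGGCG. A CArG box was found in 2 of the 8 members, against 1.29% of 35116 windows of that length over all genes. Here and below a member counts if any of its windows matched, while the background counts single windows, and EGR2 had more than 1 window. TGACGT was found in 6 of the 8 (FOS, FOSB, FOSL2, JUND, EGR1 and EGR2), against 7.98% of windows. In FOS, FOSB and FOSL2 it lay at nearly the same distance, with its first base at -64, -60 and -66. TGACGTCA was found in JUND alone, against 1.85% of windows, TGACTCA in FOSL2 alone, at bases 5 to 11 after the start, against 4.95%, and the EGR sites in 0 of the 8 members, against 5.77%. JUN and JUNB held none of these letters in their windows. These matches are letters in a fixed window, not measured binding sites. Bases more than 250 before the start were not searched. A member without a match in its window, such as FOS for the CArG box, may hold one further out.

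Library totals ran from 20221432 to 30388937 estimated counts, and values below are TMM-scaled CPM, counts relative to the library's total. The smallest count behind a member was 246, the sum of EGR2 over the 3 GFP libraries, and a count of 0 would allow up to 0.148 CPM in the shallowest library, by counting error alone. The BMI1 row rose from 81.5, 92.7 and 94.0 CPM in GFP replicates 1, 2 and 3 to 518, 522 and 506 CPM in the BMI1 replicates, and how much of the murine transgene the human row can take up is not known. The melanoma genes SOX10, CSPG4 and MIA averaged 647, 685 and 107 CPM in GFP cells, while the pigment genes TYR and DCT had 0 and 2 counts over the GFP libraries and 1 and 5 over the BMI1 libraries. On the second principal component, which held 12.2% of the variance, GFP replicate 1 lay apart from the other GFP libraries. Nothing in the labels says that replicates are separate cultures, and the p-values therefore reflect only how these libraries vary, which may be technical variation. In these bulk samples fewer expressing cells and less RNA per cell cannot be told apart.

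The members did not move together. EGR3 rose 2.46-fold, JUNB rose 1.19-fold, EGR1 was 1.25-fold lower with BMI1, and the other 7 members did not pass the test. That is 3 of 10 members called at an adjusted p under 0.05 (edgeR's quasi-likelihood test, Benjamini-Hochberg over all tested genes), against 26.4% of all 15079 tested genes, so the share called was close to the background. Of the members 2 rose, against 17.1% of all tested genes, and 1 fell, against 9.32%. The libraries of the groups did not overlap for 4 members (JUN, EGR1, EGR2 and EGR3), against 40.1% of tested genes. The median log2 fold change of the 10 members was 0.15, beside -0.01 over all tested genes, whose quartiles were -0.13 and 0.17.

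**Figure D1:**
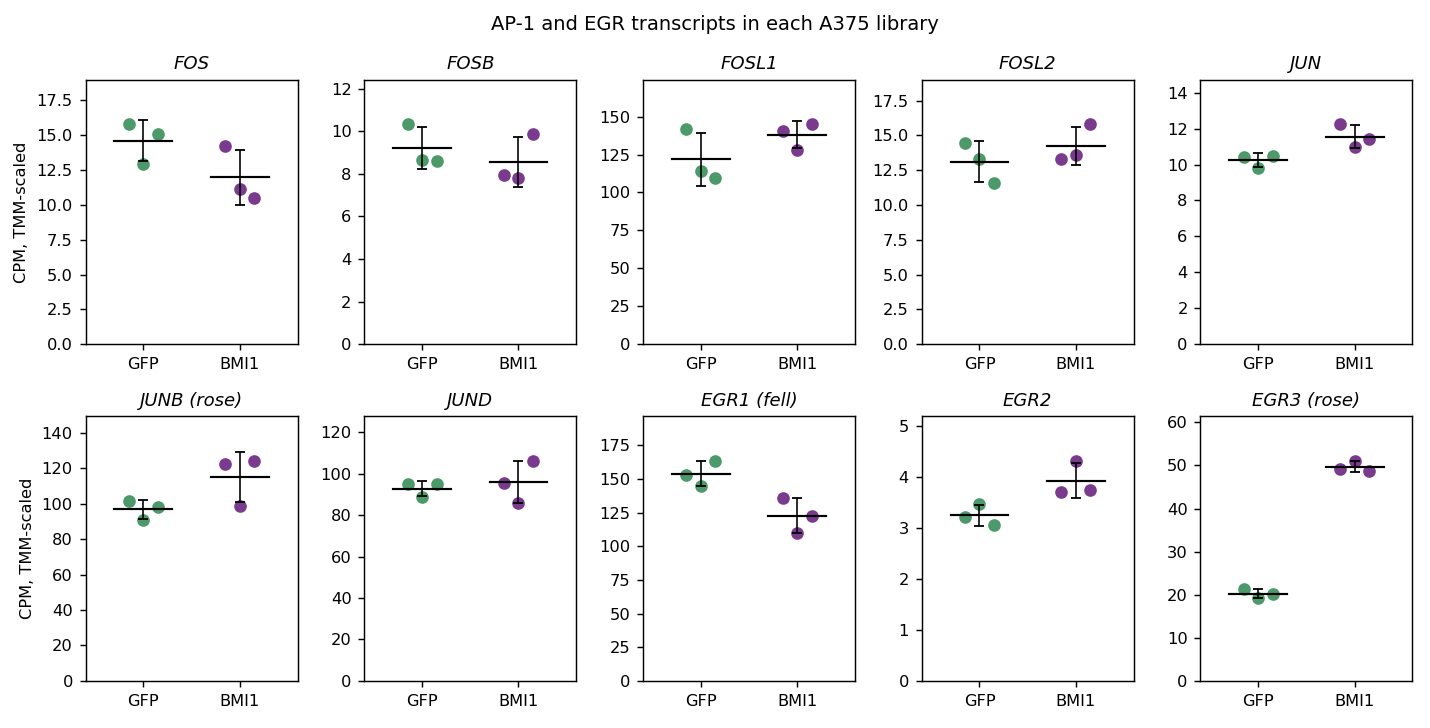
CPM (TMM-scaled, vertical axis from 0) of each of the 10 members in the 3 GFP and 3 BMI1 libraries, as points, with the mean and SD as bars. EGR3 stands between 19.2 and 21.3 CPM in GFP and between 48.7 and 51.1 CPM in BMI1 libraries, EGR1 is the member whose BMI1 libraries all lie below its GFP libraries, and in most panels the groups lie close together or overlap.

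Among the FOS proteins, which bind DNA with a JUN or other partner, 0 of 4 members passed by edgeR's test, as by DESeq2 and limma-voom, and 1 had an unadjusted p under 0.05. FOS, the founding member and the most transient one, had 15.8, 13.0 and 15.05 CPM in GFP replicates 1, 2 and 3 and 14.2, 11.2 and 10.5 CPM in BMI1 replicates 1, 2 and 3. BMI1 replicate 1 lay inside the GFP range, so the groups overlapped. The log2 fold change was -0.29 (SE 0.11, 95% interval -0.54 to -0.04) at an adjusted p of 0.0877. This call depended on the fit: FOS passed with a correction for transcript GC content (-0.37, adjusted p 0.0153), without BMI1 replicate 1 (-0.43, adjusted p 0.0145) and with the replicate number as a block (-0.30, adjusted p 0.0269), and its adjusted p ran from 0.0145 to 0.308 over the 14 alternatives.

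FOSB, a close relative of FOS best known from neurons, had 10.4, 8.67 and 8.62 CPM in GFP and 7.94, 7.79 and 9.89 CPM in BMI1 libraries. The groups overlapped, with a log2 fold change of -0.10 (95% interval -0.35 to 0.16, adjusted p 0.584). FOSL2, a FOS-related factor without the strong activation domain of FOS, had 14.5, 13.3 and 11.6 CPM in GFP and 13.3, 13.6 and 15.8 CPM in BMI1 libraries. These also overlapped (log2 fold change 0.13, 95% interval -0.09 to 0.35, adjusted p 0.369). For FOSB the interval leaves room for a fall of up to 0.35 on the log2 scale, and for FOSL2 for a rise of the same size.

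FOSL1, the FOS-related factor tied to invasive and mesenchymal-like tumour states, was the most abundant FOS transcript. It had 142, 114 and 110 CPM in GFP replicates 1, 2 and 3 and 141, 128 and 145 CPM in the BMI1 libraries. GFP replicates 2 and 3 lay below every BMI1 library, while GFP replicate 1 lay above 2 of them. The log2 fold change was 0.18 (SE 0.09, 95% interval -0.00 to 0.37) and did not pass, at an adjusted p of 0.137. With GFP replicate 1 left out, it was 0.31 at an adjusted p of 0.000169, and over the 14 alternatives the adjusted p ran from 0.000169 to 0.41.

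Among the JUN proteins, JUNB, which pairs with FOS proteins and can antagonise JUN, was the member that rose. It had 102, 90.9 and 97.98 CPM in GFP and 122, 98.8 and 124 CPM in BMI1 libraries. BMI1 replicates 1 and 3 stood above all GFP libraries, and BMI1 replicate 2 lay within the GFP range. The log2 fold change was 0.25 (SE 0.08, 95% interval 0.07 to 0.43) at an adjusted p of 0.0394. The call was lost with the GC correction (0.12, adjusted p 0.0998) and on leaving out GFP replicate 2 (adjusted p 0.161), GFP replicate 3 (0.0735), BMI1 replicate 1 (0.174) or BMI1 replicate 3 (0.191), in a range of 0.00263 to 0.191 over the alternatives. An exon of JUNB overlaps HOOK2 on the other strand, and since the strand of the libraries is not stated, reads in the shared stretch cannot be told apart. HOOK2, which encodes a microtubule-linked adaptor, had 12.05 ± 0.508 CPM in GFP and 13.8 ± 1.33 CPM in BMI1 libraries (SD, n = 3).

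JUN, the prototype of the family and the target of JNK, had 10.4, 9.82 and 10.5 CPM in GFP and 12.3, 10.96 and 11.4 CPM in BMI1 libraries. All 3 BMI1 libraries were above all 3 GFP libraries, but the difference was small (log2 fold change 0.17, SE 0.08, 95% interval -0.00 to 0.35) and did not pass, at an adjusted p of 0.140. JUND, the member that is expressed broadly in resting cells, had 95.1, 88.6 and 94.9 CPM in GFP and 95.5, 86.0 and 106 CPM in BMI1 libraries, which overlapped. Its log2 fold change was 0.05 (95% interval -0.11 to 0.21, adjusted p 0.669). Its direction turned with the GC correction, to -0.13 at an adjusted p of 0.0406, in a range of 0.0406 to 0.934 over the alternatives. The JUND transcript is 69.7% G or C, more than 99.6% of tested genes with a value, and JUNB is at 64.9%.

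The 2 EGR members that passed went in opposite directions. EGR1, the most abundant of the 3 and the classical serum- and ERK-induced factor, had 153, 145 and 164 CPM in GFP and 136, 110 and 122 CPM in BMI1 libraries. Every BMI1 library lay below every GFP library, the nearest being 136 against 145 CPM. The means were 154 ± 9.37 and 123 ± 13.1 CPM (SD, n = 3), a log2 fold change of -0.33 (SE 0.07, 95% interval -0.49 to -0.17) at an adjusted p of 0.00533. EGR1 kept this direction and passed under all 14 alternatives, from -0.41 without BMI1 replicate 1 to -0.25 without BMI1 replicate 2, with adjusted p-values of 8.08e-05 to 0.0312.

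EGR3, a factor induced with or after EGR1 that is known from lymphocytes, muscle spindles and neurons, had 21.3, 19.2 and 20.2 CPM in GFP and 49.2, 51.1 and 48.7 CPM in BMI1 libraries. Every BMI1 library stood far above every GFP library, and within each group the values lay close together. The means were 20.2 ± 1.06 and 49.7 ± 1.27 CPM (SD, n = 3), a log2 fold change of 1.30 (SE 0.06, 95% interval 1.17 to 1.42) at an adjusted p of 8.44e-09. EGR3 ranked number 62 of all tested genes by p-value, and its fold change was larger in size than those of 96.2% of them. It rose under all 14 alternatives, from 1.17 with the GC correction to 1.34 without GFP replicate 1, with adjusted p-values up to 3.25e-07. An exon of EGR3 overlaps AC055854.1, a gene on the other strand that was not analysed here, and reads in the shared stretch cannot be told apart.

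EGR2, which acts in hindbrain and Schwann cells and in lymphocytes, was the least abundant member, with 3.21, 3.46 and 3.05 CPM in GFP and 3.70, 4.32 and 3.75 CPM in BMI1 libraries. The groups did not overlap, but the counts were small, 246 over the GFP and 262 over the BMI1 libraries. The log2 fold change of 0.27 (SE 0.14, 95% interval -0.03 to 0.58) did not pass, at an adjusted p of 0.170. EGR4, the remaining relative, was not tested, with 27 counts over the GFP and 15 over the BMI1 libraries.

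**Figure D2:**
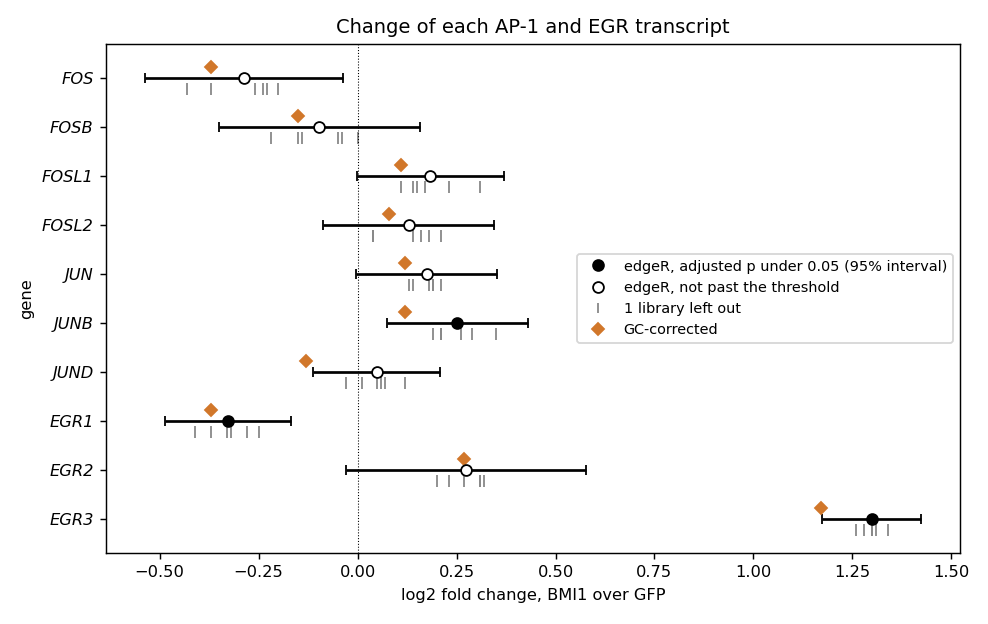
Log2 fold change of BMI1 over GFP for each member, with its 95% interval from edgeR (filled circle, adjusted p under 0.05; open circle, not past it), the value with each library left out in turn (ticks below) and the GC-corrected value (diamond above). EGR3 at 1.30 and EGR1 at -0.33 stay on their side of 0 in every setting, while the diamond of JUND lies at -0.13 on the other side of 0 from its circle at 0.05.

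Most members varied more between libraries of a group than other genes of their abundance. The biological coefficient of variation, which edgeR estimates for each gene, was above the trend for genes of the same abundance in 7 of the 10 members. It was 8.85% against a trend of 6.62% for FOS, 7.62% against 5.45% for FOSL1 and 7.30% against 5.77% for JUNB. EGR3 and JUN were below it, at 4.32% against 5.25% and 5.40% against 7.12%. Of all tested genes, 84.3% (FOSB) to 97.4% (FOSL1) had a lower ratio of coefficient to trend than the 7 members above it. For EGR2, JUN and EGR3 that share was 5.35%, 8.44% and 24.5%. GFP replicate 1 was the highest GFP library for 7 members, against 41.0% of all tested genes, and the lowest for 0, against 40.9%. BMI1 replicate 2 was the lowest BMI1 library for 6 members, among them JUNB, JUND and EGR1, against 36.6% of tested genes. All 10 member transcripts also had a GC content above the median of tested genes, and the GC correction moved JUND, JUNB and EGR3 by more than it moved EGR2 or FOSB. The part of the libraries and of GC content in the differences was not tested.

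Levels were set side by side per kilobase of the longest annotated transcript (CPM per kilobase). In GFP cells FOSL1 stood highest at 73.0 ± 10.3 (SD, n = 3), followed by JUNB at 53.2 ± 3.02, JUND at 49.8 ± 1.98 and EGR1 at 49.1 ± 2.99. The means of JUND and EGR1 lay within each other's SD, while JUNB lay above JUND in every GFP library on this length. A wide gap separated these from FOS at 6.77 ± 0.685, EGR3 at 4.66 ± 0.246, JUN at 2.89 ± 0.105, FOSB at 2.44 ± 0.261, FOSL2 at 1.96 ± 0.218 and EGR2 at 1.09 ± 0.0694. In BMI1 cells the order of the top 4 was FOSL1 at 82.7 ± 5.27, JUNB at 63.3 ± 7.83, JUND at 51.5 ± 5.50 and EGR1 at 39.1 ± 4.17, and EGR3, at 11.5 ± 0.294, now stood above FOS, at 5.54 ± 0.922.

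Within the FOS family FOSL1 made up 86.7% ± 0.887 of the summed level per kilobase in GFP and 89.3% ± 0.535 in BMI1 cells (SD, n = 3), and FOS 8.09% ± 0.867 and 5.99% ± 0.957. In the JUN family JUNB went from 50.2% ± 0.572 to 53.6% ± 1.40 and JUND from 47.1% ± 0.531 to 43.7% ± 1.42, with JUN near 2.73% and 2.78%. The EGR family shifted most: EGR1 made up 89.1%, 89.2% and 90.2% in the GFP libraries and 77.5%, 72.6% and 75.7% in the BMI1 libraries, and EGR3 9.0%, 8.5% and 8.0% against 20.3%, 24.4% and 21.8%. EGR1 nevertheless remained the most abundant EGR transcript in every library. The family sum, at 54.8 ± 3.02 CPM per kilobase in GFP and 51.9 ± 3.87 in BMI1 cells, overlapped between the groups, as did the sums of the FOS family (84.2 ± 11.2 and 92.7 ± 5.75) and of the JUN family (106 ± 5.04 and 118 ± 13.0). These shares and sums depend on the transcript length. With the median in place of the longest transcript, EGR3 went from 21.0% to 44.7% of the EGR sum. JUND then stood above JUNB in both groups (58.4% against 39.5% in GFP and 55.0% against 42.8% in BMI1 cells). On the median length EGR3 went from 13.5 CPM per kilobase in GFP to 33.1 in BMI1 cells, and EGR1 from 49.1 to 39.1. The mean EGR sum was then higher in BMI1 cells, not lower, and the overlap of the groups given above is that of the longest transcript.

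**Figure D3:**
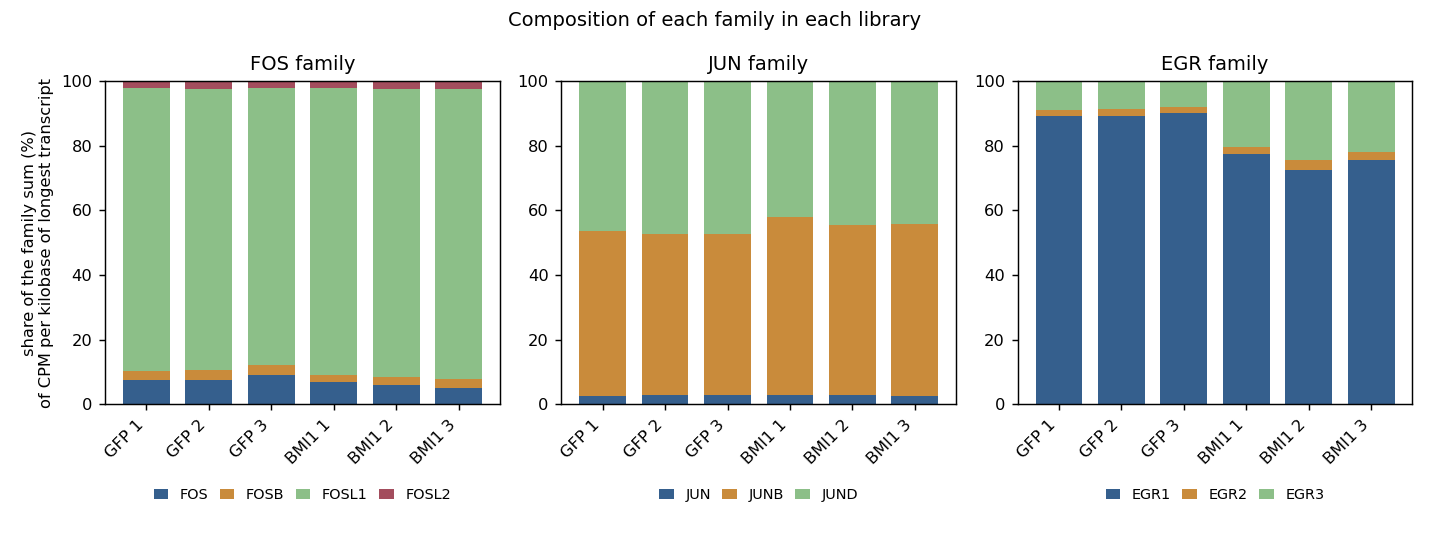
Share (%, vertical axis) of each member in the summed CPM per kilobase of its family, for the FOS, JUN and EGR families, in each of the 6 libraries. EGR3 takes 8.0% to 9.0% of the EGR bars in the GFP libraries and 20.3% to 24.4% in the BMI1 libraries, while FOSL1 holds 85.7% to 89.8% of the FOS bars throughout.

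Ratios between members of 1 library do not depend on the library's scaling or on transcript length when groups are compared, and 4 were computed, chosen after the values were seen. All 4 were taken on CPM per kilobase of the longest transcript. EGR1 per EGR3 was 9.93, 10.4 and 11.2 in GFP and 3.82, 2.97 and 3.47 in BMI1 libraries, 3.09-fold lower. FOSL1 per FOS was 11.6, 11.4 and 9.43 in GFP and 12.8, 14.9 and 17.9 in BMI1 libraries, 1.40-fold higher. JUNB per JUND was 1.10, 1.05 and 1.06 in GFP and 1.31, 1.18 and 1.197 in BMI1 libraries, 1.15-fold higher. For these 3 ratios the groups did not overlap, which gives a two-sided exact permutation p of 0.1, the smallest that 3 against 3 libraries allow (0.133 with Benjamini-Hochberg over the 4). JUNB per JUN overlapped between the groups, at 18.4 ± 0.494 and 19.4 ± 1.81 (exact permutation p 0.6).

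Genes whose CPM over the 6 libraries was most like a member's were named by Pearson's r among 11441 genes with a mean of at least 5 CPM, as a description of 2 groups of 3 libraries. Nearest to EGR1 were ING1, HIC2 and IRS2, each at r = 0.99. IRS2, an adaptor of the insulin receptor, went from 230 ± 22.7 to 182 ± 19.0 CPM (SD, n = 3), and HIC2, a transcriptional repressor, from 15.4 ± 0.739 to 13.1 ± 0.936 CPM. Both fell by edgeR's test (adjusted p 0.00771 and 0.0400), while ING1, a reader of histone methylation, did not pass (52.6 ± 1.15 and 49.6 ± 1.199 CPM, adjusted p 0.290). The nearest to FOS (TTLL5, ZNF718 and BRD1), to JUN (PPP1R13B, C22orf29 and MYH9) and to FOSL1 (TNPO2, C1orf85 and PMPCA) did not pass. For EGR3, looked up after its values were seen, GFPT2, CRMP1 and CEBPA were nearest, and all 3 rose, GFPT2 from 62.3 ± 1.28 to 99.8 ± 1.64 CPM. For the genes nearest to EGR1 as for those nearest to EGR3, the direction of change follows from the choice. Genes this like a member differ between the groups as it does, so their p-values are no separate result.

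The genes around these factors were read from lists written from general knowledge, with earlier results of these data known. The share called in a list is therefore a description, not a test, and some genes stand in more than 1 list. Of 22 tested dimer partners and related leucine zipper factors, 5 rose, 3 fell and 14 did not pass, with a median log2 fold change of -0.02. Counts in this and the following lists are read beside the background of all tested genes, of which 17.1% rose, 9.32% fell and 26.4% were called. The count that rose was 3 without GFP replicate 2, GFP replicate 3 or BMI1 replicate 1, and the count that fell was 5 without GFP replicate 1 or with the GC correction. BATF3, a JUN partner of dendritic and lymphoid cells, rose from 2.83 ± 0.277 to 6.71 ± 0.769 CPM (log2 fold change 1.24), and CREB5, which also pairs with JUN, from 11.2 ± 0.317 to 18.6 ± 1.37 CPM (0.72). ATF3, a stress-induced partner of JUN that is itself an immediate early gene, fell from 17.3 ± 0.972 to 11.9 ± 1.68 CPM (-0.53, adjusted p 0.00126). CREM and ATF5 fell by 0.31 and 0.29 on the log2 scale. JDP2, a repressor that pairs with JUN proteins, rose by 0.52 (adjusted p 0.0288), a call lost without GFP replicate 2, GFP replicate 3 or BMI1 replicate 1, with an adjusted p of up to 0.143. MAFA, a large MAF factor, rose from 0.326 ± 0.0355 to 1.17 ± 0.157 CPM.

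NAB2, the corepressor that EGR proteins induce and that binds EGR1, rose from 77.3 ± 3.27 to 91.3 ± 6.66 CPM (SD, n = 3; log2 fold change 0.24, adjusted p 0.0159). It was the 1 of 5 tested EGR relatives and corepressors that passed, and it did not pass on leaving out in turn GFP replicate 2, BMI1 replicate 1 and BMI1 replicate 3 (adjusted p up to 0.0964). NAB1 did not pass (0.11, adjusted p 0.242), though with the GC correction it was 0.15 and passed (adjusted p 0.0166). The highest NAB2 value in GFP libraries, 80.9 CPM, lay below the lowest in BMI1 libraries, 83.8 CPM.

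Other immediate early genes divided. Of 52 tested, with JUNB among them, 22 rose, 8 fell and 22 did not pass, so that 57.7% were called, against 26.4% of all tested genes (17.1% rose and 9.32% fell), and the median log2 fold change was 0.13. Over the alternatives 17 to 25 rose and 6 to 12 fell. Those with the smallest adjusted p were IL8, CXCL1, ID1, ID3, PLK2 and F3, and PLK2, a polo-like kinase, rose from 109 ± 3.07 to 187 ± 11.8 CPM. NR4A1, an orphan nuclear receptor induced alongside EGR1, had 84.1, 73.2 and 83.0 CPM in GFP and 69.1, 57.2 and 64.5 CPM in BMI1 libraries and fell (log2 fold change -0.33, adjusted p 0.0076). The other genes that fell, named after their values were seen, were NR4A2 (-0.26), NR4A3 (-0.59), KLF2 (-0.45), KLF4 (-0.37), PPP1R15A (-0.37), BTG1 (-0.22) and ATF3 (-0.53), so all 3 NR4A receptors fell. IER2 (0.03), DUSP1 (0.09), MYC (0.05), CYR61 (0.07) and CTGF (0.19) did not pass, with adjusted p-values from 0.0654 to 0.80. CTGF passed with the GC correction (0.18, adjusted p 0.0255).

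Upstream of the members, the share of transcripts called was 20% in the SRF list, 26.3% in the ERK cascade and 31.6% in the JNK and p38 cascades, near the 26.4% of all tested genes. Of 10 tested genes of SRF, its cofactors and coactivators, 0 rose by edgeR's test, DESeq2 or limma-voom (2 had an unadjusted p under 0.05). The 2 that fell were EP300 (-0.21), a histone acetyltransferase, and MED23 (-0.19), a Mediator subunit, and neither passed without GFP replicate 3 or without BMI1 replicate 3 (adjusted p up to 0.1 and 0.191 over the alternatives). EP300 did not pass without BMI1 replicate 2 either. MED23 did not pass in 9 of the 14 alternatives, among them DESeq2 (adjusted p 0.0677), limma-voom (0.0553), the replicate block (0.0625) and the GC correction (0.0794). Without GFP replicate 1, 2 genes of the SRF list rose, and 1 rose with the GC correction. SRF itself did not pass (-0.07, adjusted p 0.519), though with the GC correction it was -0.16 and passed (adjusted p 0.0105). Of 19 ERK cascade genes 3 rose and 2 fell: KSR1, a scaffold of the cascade (3.04 ± 0.473 to 5.87 ± 0.124 CPM), and the kinases RPS6KA2 and RPS6KA4 rose, NRAS and MAP2K2 fell, and BRAF did not pass (-0.22, adjusted p 0.0668). BRAF passed with the replicate block (adjusted p 0.0441), with no filter on low counts (0.0469) and without BMI1 replicate 2 (-0.32, adjusted p 0.00604). Neither NRAS nor MAP2K2 passed on leaving out in turn GFP replicate 2, BMI1 replicate 1 and BMI1 replicate 3, and over all alternatives NRAS lost its call in 4 and MAP2K2 in 6. The call on RPS6KA4 was lost without GFP replicate 2 (adjusted p 0.0504). Of 19 JNK and p38 cascade genes 4 rose, with MAPK11, a p38 kinase, at 8.96 ± 0.414 and 14.1 ± 0.746 CPM, and 2 fell, MAP2K6 (-0.51) and MAP3K4 (-0.24), with 4 falling without GFP replicate 1.

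Of 18 genes that report ERK output or feed back on it, 1 rose and 5 fell, with a median log2 fold change of -0.05. Over the alternatives 1 to 4 rose and 2 to 7 fell, with 4 rising under upper-quartile scaling, the filter at 1 CPM, the GC correction or without GFP replicate 1, 2 falling without BMI1 replicate 1 or 3, and 3 falling without GFP replicate 2 or 3. ETV4, an ETS factor downstream of ERK, fell from 215 ± 16.3 to 170 ± 9.84 CPM (log2 fold change -0.33) and PHLDA1 from 953 ± 23.5 to 837 ± 33.1 CPM (-0.19), each under all 14 alternatives. SPRY2 (-0.14), DUSP4 (-0.20) and ETV5 (-0.15) fell too, though each of these calls was lost in some alternatives (adjusted p up to 0.136, 0.149 and 0.13), and DUSP6, the ERK phosphatase, did not pass (-0.06, adjusted p 0.561). EPHA4 was the gene of the list that rose (0.73). Of 20 genes that act on the stability or activity of immediate early products, 2 rose, TRIB1 and ZFP36L2, and 3 fell, TRIB2 (-0.25), SIRT1 (-0.24) and COPS5 (-0.20). The rises of this list went to 0 on leaving out in turn GFP replicate 2, BMI1 replicate 1 and BMI1 replicate 3, and 6 of its genes fell without GFP replicate 1.

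Textbook AP-1 targets, of which 41 of 56 were tested, had 17 that rose and 6 that fell (56.1% called, against 26.4% of all tested genes, of which 17.1% rose and 9.32% fell), with a median log2 fold change of 0.11. With the GC correction 13 fell, and over the alternatives 15 to 19 rose. FOSL1 is itself on this list and did not pass. TIMP1, an inhibitor of matrix metalloproteinases, rose from 207 ± 5.80 to 348 ± 18.5 CPM, MT2A, a metallothionein, from 188 ± 4.502 to 306 ± 23.4 CPM, ITGA2, an integrin subunit, from 45.8 ± 1.05 to 78.5 ± 5.005 CPM, and IL11, a cytokine, from 10.7 ± 1.15 to 18.3 ± 0.743 CPM. The collagenase MMP1, a long-studied AP-1 target, did not pass (5.28 ± 0.203 and 4.24 ± 0.358 CPM, log2 fold change -0.31, adjusted p 0.0806), nor did AXL (-0.08, adjusted p 0.221) or CCND1 (0.08, adjusted p 0.144). AXL passed with the GC correction (-0.15, adjusted p 0.0121). VIM fell (-0.16). PLAU was not tested, with 16 and 8 counts in the groups.

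Of 35 tested textbook EGR1 targets 20 rose and 4 fell, so that 68.6% were called, against 26.4% of all tested genes (17.1% rose and 9.32% fell), and the median log2 fold change was 0.42. Over the alternatives 18 to 22 rose, and the count that fell was 2 without GFP replicate 2 and 1 without BMI1 replicate 1 or BMI1 replicate 3. FLT1, a receptor for VEGF, rose from 18.1 ± 1.24 to 42.9 ± 1.82 CPM, THBS1, an adhesive glycoprotein, from 248.6 ± 18.9 to 416 ± 24.6 CPM, and ABCA2, a lipid transporter, from 56.9 ± 3.69 to 97.3 ± 4.78 CPM. FN1, IGF2 and ID3 were the others of the 6 with the smallest adjusted p, and all 6 rose. Among those that fell were ATF3, DUSP4 (-0.20) and PPARG (-0.22), the last named after its values were seen. EGR1 mRNA fell and EGR3 and NAB2 mRNA rose between the same groups of libraries. Their part in the changes of the targets was not tested and cannot be told apart here.

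Markers of other cell types differed between the same libraries, and their part in the changes of the target lists was not tested. Of the fibroblast markers 6 of 8 tested rose, the summed level going from 199 to 209 CPM in GFP libraries to 283 to 305 CPM in BMI1 libraries, and 2 of 4 tested keratinocyte markers rose, from a sum of 138 to 151 CPM to one of 161 to 168 CPM. PRRX1, a mesenchymal transcription factor, rose from 159 ± 6.43 to 211 ± 13.9 CPM, FBLN1, a matrix protein, from 10.2 ± 1.81 to 27.7 ± 1.35 CPM, COL1A1, a collagen chain, from 2.88 ± 0.204 to 7.69 ± 0.889 CPM, and PDGFRA, LUM and COL1A2 rose 2.16-, 1.73- and 2.19-fold. The defining fibroblast genes THY1 and COL3A1 were near 0, with 1 and 8 counts over the GFP and 5 and 6 over the BMI1 libraries. The keratinocyte genes KRT5 and TP63 had 1 count each over the GFP libraries and 1 and 6 over the BMI1 libraries, while PERP rose from 81.4 ± 0.851 to 96.1 ± 3.45 CPM and KRT14 from 3.38 ± 0.504 to 4.94 ± 0.352 CPM. KRT10 (60.6 and 63.3 CPM, adjusted p 0.593) and SFN (0.794 and 0.427 CPM, adjusted p 0.150) did not pass. PERP and KRT10 held most of the summed level. The summed leukocyte (43.4 to 49.7 and 46.4 to 50.9 CPM) and endothelial markers (14.2 to 15.7 and 13.8 to 15.8 CPM) overlapped between the groups, but single markers moved in opposite directions. Of the 2 leukocyte markers tested LYZ fell (log2 fold change -0.68, adjusted p 0.000373) and CD68 rose (0.25, adjusted p 0.0446), and of the 6 endothelial markers tested KDR fell (-0.83, adjusted p 0.000324) while VWF and ROBO4 rose 1.80- and 1.43-fold.

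Handling of cells before lysis can induce immediate early genes, and heat shock and acute stress genes were therefore read beside them. Of 14 tested, 1 rose and 4 fell, with a median log2 fold change of -0.15. The count that fell was 7 without GFP replicate 1, with DESeq2, with the replicate block and with the GC correction, and 2 on leaving out in turn GFP replicate 2, BMI1 replicate 1 and BMI1 replicate 3. DDIT3 fell from 42.1 ± 2.54 to 29.2 ± 0.921 CPM (log2 fold change -0.52) and BAG3, a chaperone cofactor, from 167 ± 15.9 to 140 ± 3.31 CPM (-0.25). DNAJA1 (-0.18) and HSPH1 (-0.16) fell as well, though not in every alternative (adjusted p up to 0.102 and 0.144), and HSPA1A did not pass (-0.08, adjusted p 0.623), nor did DNAJB1 (-0.16, adjusted p 0.0826), which passed with the GC correction (adjusted p 0.00282) and without GFP replicate 3 (0.0395). HSPA6, at 1.93 ± 0.196 and 2.84 ± 0.349 CPM, was the one that rose, and it passed in 9 of the 14 alternatives. DDIT3 and BAG3 were lower in the same libraries in which EGR1, NR4A1 and ATF3 were lower, and the part of handling in those differences was not tested.

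**Figure D4:**
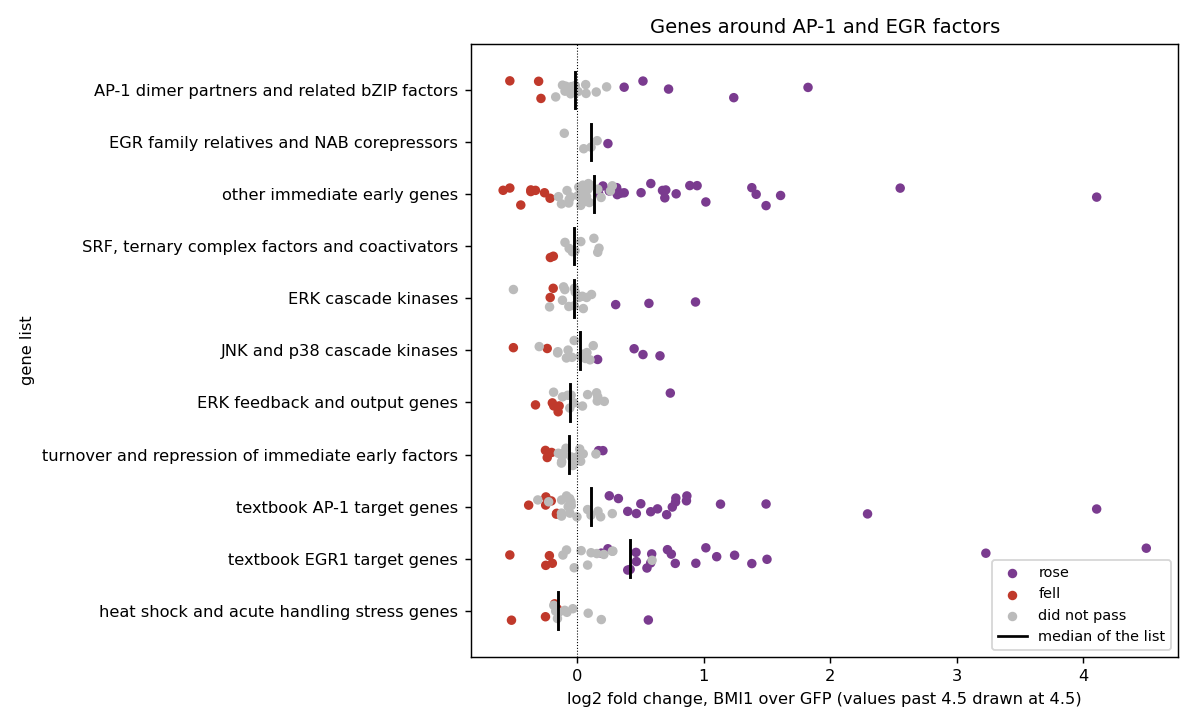
Log2 fold change of BMI1 over GFP (horizontal axis) for the tested genes of the 11 lists, 1 point per gene, coloured by whether it rose, fell or did not pass, with the median of each list as a black line. The medians lie between -0.15 for heat shock genes and 0.42 for textbook EGR1 targets, and the points of the ERK feedback list that fell sit left of 0.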

How the data were processed

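Total RNA was isolated with TRIzol and a column kit before Illumina library preparation, per the labels' protocols. The deposited table holds RSEM estimated counts per gene symbol, which the authors did not normalize. RSEM 1.2.12, Bowtie 1.0.1 and hg19 are listed in the submitters' processing notes. Strand and read length are not stated. RSEM divides reads among the transcripts they fit, which matters where genes are alike in sequence.

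Estimated counts were rounded to whole numbers, filtered with edgeR's filterByExpr (15079 genes kept), TMM-scaled, and compared by edgeR's quasi-likelihood test (edgeR 4.0.16, R 4.3.3), with Benjamini-Hochberg adjustment over all tested genes and a threshold of 0.05. Adjusted p-values in the text come from this test unless another is named. A positive log2 fold change means higher with BMI1, intervals are 95% from the standard error and the test's degrees of freedom, and CPM values are TMM-scaled. Library totals were 20221432 to 30388937, and limits from counts of 0 use 3 counts.

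The members and the gene lists were chosen with earlier results of these data known. The text names the 10 members, up to 6 passing genes with the smallest adjusted p in each list, a fixed set that includes EGR4, NAB1, NAB2, ATF3, JDP2, SRF, NR4A1, MYC, BRAF and MMP1, and the 3 genes most like each of EGR1, FOS, JUN and FOSL1. Some genes that the rule picks are not described. Transcript lengths, GC content (94.7% of tested genes) and exon overlaps come from GENCODE v29 by symbol, and promoter windows from RefSeq on GRCh38.p14. Libraries were grouped by title. Replicate numbers did not pair libraries, since nothing in the labels ties them and the deviations of same-numbered libraries correlated at 0.094 at most.

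There were 14 alternatives: upper-quartile scaling, size factors from DESeq2, DESeq2 1.42.0, limma-voom (limma 3.58.1), 2 other filters, the replicate number as a block, a lowess correction for GC content with a span of 0.3, and leaving out each of the 6 libraries. Plots used matplotlib 3.10.9 (Python 3.11.15).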

Additional observations from a re-analysis of the deposited data

How the results depend on the processing

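EGR1 and EGR3 kept their direction and passed under all 14 alternatives. The remaining calls on members rested on small differences. With the correction for GC content JUND turned to -0.13, JUNB went to 0.12 and did not pass, and FOS went to -0.37 and passed. FOS also passed in the fit with the replicate number as a block (-0.30, adjusted p 0.0269), which was otherwise close to the unblocked fit (3988 against 3986 genes called). Same-numbered libraries correlated at 0.068, 0.094 and -0.065 in their deviations from the group means. Of the 3 numbers only number 2 correlated best with itself. With 3 libraries per group these correlations cannot settle whether the numbers mark pairs, and the labels do not say. With 1 library left out, the log2 fold change ran from -0.43 to -0.20 for FOS, from 0.11 to 0.31 for FOSL1 and from 0.19 to 0.35 for JUNB. Between 2 and 4 members passed over the alternatives. The number of genes lowered among all tested was 1405, against 2323 with the GC correction and 711 to 2451 with 1 library left out. The low value came without BMI1 replicate 3 and the high value without GFP replicate 1. In all, 2757 to 5644 genes were called with 1 library left out and 5508 with the GC correction. Among the counts of all genes and of members called and the members' fold changes, 180 comparisons with an alternative kept the result and 6 moved it. Another 5 lost a call, 4 gained one and 1 reversed, that of JUND. Among list counts, named genes other than the members, levels per kilobase and promoter matches, 1279 comparisons kept the result and 92 moved it. Of the rest, 72 lost a call, 9 gained one and 0 reversed one. The AP-1 match of FOSL2 lies after the start and was lost when the bases after the start were left out of the window. The cause of these shifts was not tested. Depth limits EGR2 most, with 246 and 262 counts per group, while the other members had at least 578 per group.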
